A study of Mus musculus with 2 samples.

Results

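NMDA receptor subunit genes were examined in total RNA of the left cerebral cortex. These were Grin1, Grin2a, Grin2b, Grin2c, Grin2d, Grin3a and Grin3b, 7 of the 55536 annotated genes. The genes were chosen by their symbols, with earlier results of these data known. They had 39 annotated transcripts, 27 of them protein coding, and 20 of these held at least 90% of their gene's longest coding sequence and are called full coding here. Male mice of B6CASTF1/J, the F1 hybrid between C57BL/6J and CAST/EiJ, gave the tissue at 25 days of age. There was 1 group with 2 libraries, replicate 1 and replicate 2, each made from 300 ng of RNA with ERCC spike-in RNA. The labels give both libraries the same donor entry, and only the separate tissue numbers and replicate wording mark them as different animals, on which each SD (n = 2) rests. Of 30503944 and 33263801 expected counts in the gene table, the family took 90685 and 93709. The design held a single age and no contrast, so no change over development was measured and no p-value is given.

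NMDA receptors are glutamate-gated cation channels that need a co-agonist, glycine or D-serine, and relief of magnesium block before they pass calcium. Each receptor combines the obligatory GluN1 subunit with GluN2 subunits, which bind glutamate and set the channel's kinetics, or with GluN3 subunits, which bind glycine. In rodent forebrain GluN2B predominates around birth and GluN2A becomes abundant as circuits mature, a change known as the GluN2B to GluN2A switch.

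GluN1 comes from 1 gene, and its variety comes from 3 splice choices in Grin1. The 8 full coding Grin1 transcripts of GENCODE M21 were every combination of them: the N1 exon in or out, the C1 exon in or out, and a long or a short last exon. The N1 exon (exon 4 of Grin1-204, chr2:25311343-25311405 on mm10, minus strand) encodes a basic loop of the extracellular domain. The C1 exon (exon 20 of Grin1-204, chr2:25294438-25294548) encodes part of the intracellular tail and carries an endoplasmic reticulum retention signal. The long last exon ends the protein with the C2 sequence (coding part chr2:25292371-25292484), and the short one with C2 prime (coding part chr2:25292063-25292128), which ends in a PDZ-binding motif. These sequences, with the 60-base insert of Grin3a described below, are shown because the transcript results turn on them. They are from the GENCODE M21 transcripts, 5′ to 3′ on the coding strand. Capitals mark lysine and arginine codons, and in C2 prime the last 4 codons.
N1 exon: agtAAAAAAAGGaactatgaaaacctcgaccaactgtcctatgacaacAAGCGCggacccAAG
C1 exon: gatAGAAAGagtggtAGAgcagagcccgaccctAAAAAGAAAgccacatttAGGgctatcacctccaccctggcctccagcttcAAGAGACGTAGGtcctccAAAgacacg
C2 coding end: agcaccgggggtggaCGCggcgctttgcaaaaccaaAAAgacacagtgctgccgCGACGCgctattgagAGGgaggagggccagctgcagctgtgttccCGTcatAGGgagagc
C2 prime coding end: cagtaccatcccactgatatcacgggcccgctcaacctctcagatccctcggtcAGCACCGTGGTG
Grin3a insert: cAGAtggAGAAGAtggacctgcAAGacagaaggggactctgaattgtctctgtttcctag
Each of the 5 is a multiple of 3 bases long (63, 111, 114, 66 and 60). The N1 exon, the C1 exon and the Grin3a insert therefore keep the reading frame when present. C2 and C2 prime are alternative ends of the coding sequence. Lysine and arginine take 6 of the 21 codons of N1 and 12 of the 37 codons of C1.

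Levels are given in TPM, the usual length-scaled measure of transcript abundance, a unit that divides counts by transcript length and so can be compared between genes. Grin1, Grin2b and Grin2a made up most of the family's RNA. Grin1 (chr2:25291181-25319187, minus strand), the obligatory subunit, measured 207.04 TPM in replicate 1 and, lower, 189.93 in replicate 2, a mean of 198.49 ± 12.10 (SD, n = 2). Both values lay above their own deposited credibility intervals, 197.64 to 205.10 and 182.09 to 188.55 TPM. The posterior means were 201.32 and 185.33 TPM. Grin2b (chr6:135713233-136173511, minus strand), the GluN2 gene of the immature forebrain, was at 153.73 and 148.36 TPM (151.05 ± 3.80). Grin2a (chr16:9567898-9995560, minus strand), its partner in the switch, was at 114.91 and 109.08 TPM (112.00 ± 4.12). By mean TPM they ranked 392, 576 and 866 among all genes, above 97.3%, 96.1% and 94.1% of the detected ones.

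The other GluN2 genes were lower. Grin2c (chr11:115249169-115267243, minus strand), best known from cerebellar granule neurons, was at 17.37 and 17.92 TPM (17.65 ± 0.39). Grin2d (chr7:45831883-45878378, minus strand), a subunit of slow receptors expressed in interneurons and early in development, was at 4.59 and 4.76 TPM (4.67 ± 0.12). The GluN3 genes were far apart from each other. Grin3a (chr4:49661611-49845744, minus strand), whose product lowers calcium permeability and is known from immature synapses, was at 14.56 and 15.15 TPM (14.86 ± 0.42). Grin3b (chr10:79970715-79977190, plus strand), known from motor neurons, was at 0.11 and 0.06 TPM (0.08 ± 0.04) on 7 and 4 expected counts, where 3 counts correspond to 0.047 and 0.045 TPM.

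A gene was called detected at 1 TPM or more in both libraries. Except for Grin3b the members were, 6 of 7, where 26.5% of all annotated genes were detected. The order from high to low was Grin1, Grin2b, Grin2a, Grin2c, Grin3a, Grin2d and Grin3b in both libraries. No neighbours in this order overlapped in the range of their 2 values, in the gene table or in a second transcript table made with another program. The narrowest step in the gene table was Grin2c over Grin3a, 1.19-fold and 1.18-fold, and Grin1 over Grin2b was 1.35-fold and 1.28-fold. In the second table Grin2b over Grin2a was the narrowest, 1.1-fold and 1.09-fold. That table put each member at a higher TPM, by 1.28-fold for Grin2b to 1.62-fold for Grin2d on the means, so levels are compared only within a table.

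**Figure D1:**
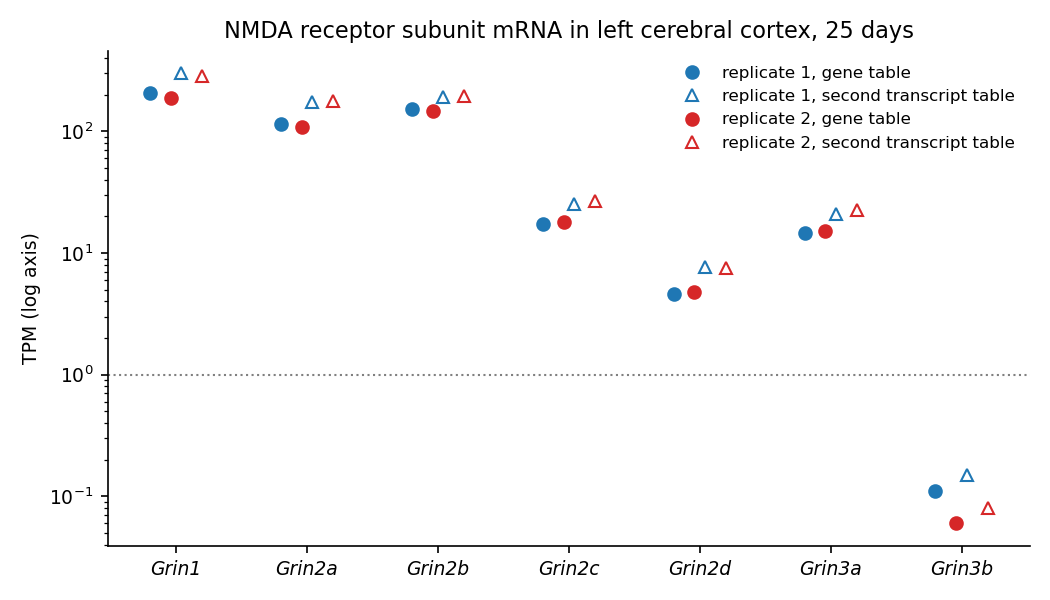
TPM of each NMDA receptor gene (log axis) in replicate 1 and replicate 2, from the gene table (filled circles) and the second transcript table (open triangles). The dotted line is 1 TPM. Grin1, Grin2a and Grin2b sit above 100 TPM in both tables, and Grin3b sits below the line.

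Grin2a stayed below Grin2b in both libraries by each estimate. From gene TPM the ratio of Grin2a to Grin2b was 0.747 in replicate 1 and 0.735 in replicate 2, or -0.42 and -0.44 on the log2 scale (mean -0.43 ± 0.02, SD, n = 2). The 95% counting intervals of the log2 ratio, which cover counting error only, ran from -0.44 to -0.40 and from -0.47 to -0.42. In the second table the ratio was 0.91 and 0.915, so Grin2b was higher there by a smaller margin. The direction was thus the same in 2 of 2 libraries in both tables, while the size depended on the table more than on the animal.

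Both genes have annotated pieces that hold much TPM on few counts. Transcripts that are not full coding held 27.9% and 29.9% of Grin2b TPM in replicate 1 and replicate 2 on 1.54% and 1.79% of its expected counts. In Grin2a they held 15% and 15.8% of TPM on 4.2% and 4.02% of counts. Such transcripts held, in the second table, 19.2% and 22.6% of Grin2b TPM and 19.1% and 23.7% of Grin2a TPM. With full coding transcripts of both genes alone, a comparison added after the data were seen, the ratio of Grin2a to Grin2b was 0.882 and 0.882 in the first transcript table and 0.91 and 0.902 in the second. The estimates then lay closer together, and Grin2b was still the higher of the pair.

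**Figure D2:**
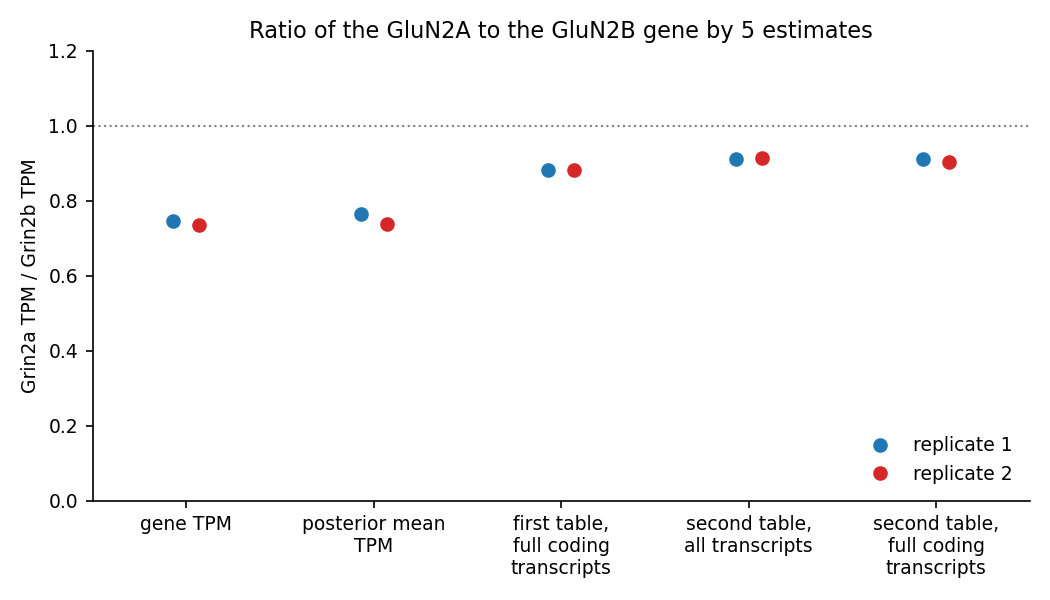
Ratio of Grin2a TPM to Grin2b TPM in each replicate by 5 estimates, with a dotted line at equal levels. Each point lies below the line, from 0.735 in replicate 2 by gene TPM to 0.915 in replicate 2 by the second table.

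Both genes were led by transcripts with very long 3′ untranslated regions (UTRs). Grin2b-201 is 24060 bases long, 18868 of them 3′ UTR, in a last exon of 20716 bases. It held 57.04% and 52.7% of Grin2b TPM but 91.07% and 89.13% of its expected counts. Grin2b-202, 7484 bases with a 3′ UTR of 2275, held 15.03% and 17.42% of TPM. Between these full coding forms, Grin2b-201 held 79.1% and 75.2% in the first table and 86% and 80.6% in the second.

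The shorter Grin2b transcripts drew their TPM from few counts. Grin2b-206, a partial model of 601 bases and 2 exons, was given 10% and 15.46% of Grin2b TPM in the first table on 155.43 and 259.3 expected counts. Grin2b-204, a partial model of 703 bases, was given 8.14% and 8.3% in the first table and 0% and 0.15% in the second. Grin2b-205, of 2461 bases, was given 4.64% and 5.31%, and 1.78% and 2.2% in the second table. The second table gave Grin2b-206 a share of 16.18% and 19.14%. Grin2b-206 thus kept a large share with both programs, Grin2b-204 and Grin2b-205 stayed under 5% in the second, and Grin2b-201 led in both tables. The deposited credibility intervals of Grin2b-206 in the first table were wide, however, 2.17 to 24.16 TPM in replicate 1 and 9.25 to 28.48 TPM in replicate 2.

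Grin2a-206, of 14634 bases with a 3′ UTR of 9932, held 60.91% and 59.12% of Grin2a TPM and 84.47% and 83.95% of its counts. Grin2a-202, which has a coding sequence of the same length, 4392 bases, but a 3′ UTR of 89 bases, held 24.11% and 24.84%. The second table gave them 56.04% and 51.55%, and 24.83% and 24.78%. Among the full coding Grin2a forms the long-tailed Grin2a-206 held 71.6% and 70.2% in the first table and 69.3% and 67.5% in the second, so this split varied little between animals and tables. Grin2a-204, an unspliced piece annotated as a retained intron, held 10.34% and 9.69%. Grin2a-205, a non-coding model of 602 bases, held 0% and 3.93% in the first table and 10.05% and 15.68% in the second.

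**Figure D3:**
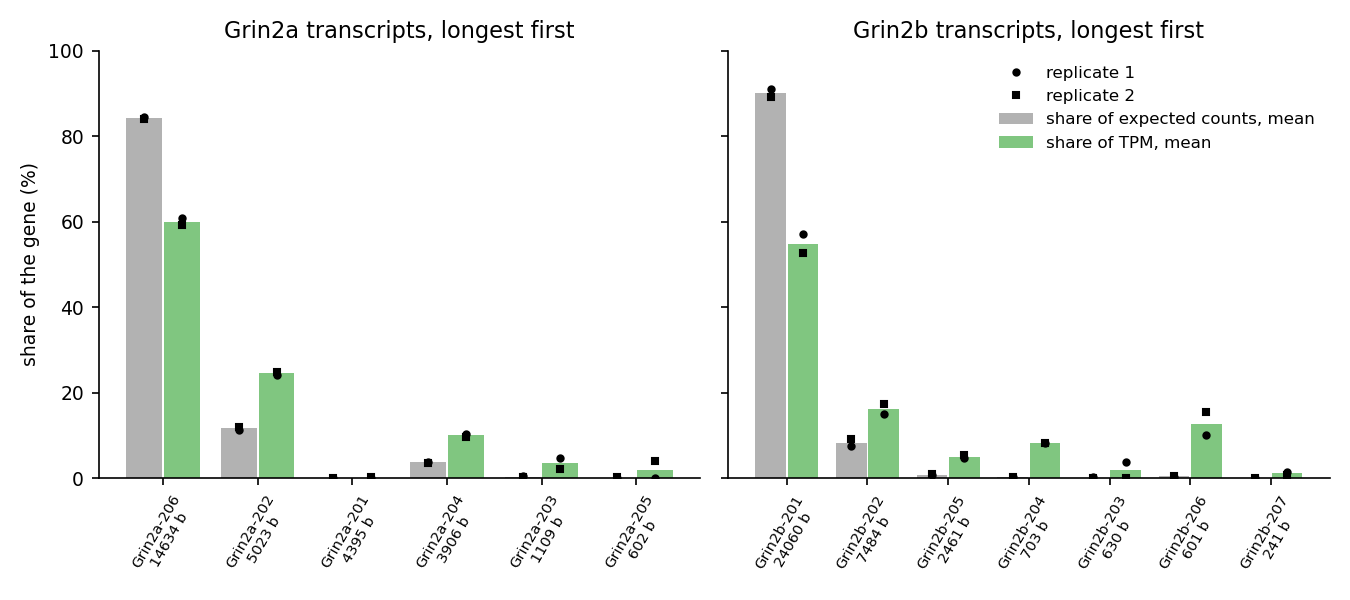
Share of each gene's expected counts (grey) and of its TPM (green) held by each Grin2a and Grin2b transcript, longest on the left with its length in bases. Bars are the mean of the 2 replicates, and points are each replicate. The longest form takes most counts, such as 91.07% for Grin2b-201 in replicate 1, and a smaller share of TPM, while short models show the reverse.

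Within the GluN2 set, Grin2b held 52.9% and 53% of the summed TPM, Grin2a 39.5% and 38.9%, Grin2c 5.98% and 6.4%, and Grin2d 1.58% and 1.7%. In the second table the same shares were 48.1% and 47.8% for Grin2b, 43.7% and 43.8% for Grin2a, 6.31% and 6.55% for Grin2c, and 1.9% and 1.85% for Grin2d. Grin2a and Grin2b together therefore made up more than 90% of GluN2 transcripts in both animals. The summed GluN2 level was 1.4 and 1.47 times that of Grin1, and 1.34 and 1.43 times in the second table. Grin3a was at 0.0703 and 0.0798 of the Grin1 level, nearly the same in the second table at 0.0695 and 0.0793.

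Ratios to Grin2d, the other GluN2 gene known for early expression, were high. Grin2a was 25 and 22.9 times Grin2d, Grin2b 33.5 and 31.2 times, and Grin2c 3.78 and 3.76 times. Grin3a was 132 and 253 times Grin3b, but the log2 counting intervals ran from 6.0 to 8.36 and from 6.62 to 9.86, since Grin3b had so few counts.

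Other gene pairs in which the second-named gene is known for immature neurons were measured beside the switch pair, with no test. Dlg4 over Dlg3, membrane scaffolds that bind GluN2 tails, was 6.26 and 6.08. Slc12a5 over Slc12a2, the chloride exporter over the importer, was 18.6 and 18. Scn1a over Scn3a, sodium channels, was 2.99 and 3.17. In these 3 pairs the gene of mature neurons was the higher in both libraries and both tables, whereas Grin2a was below Grin2b in both.

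Grin1 splice choices kept the same majority in both tables, while the leading transcript changed. Among the full coding forms in the first transcript table, those with the N1 exon held 21.3% of TPM in replicate 1 and 18.1% in replicate 2. Those with the C1 exon held 64.8% and 65.8%. Those ending in C2 held 62.3% and 59.5%, the rest ending in C2 prime. Counted singly, the larger share of Grin1 RNA thus lacked N1, carried C1 and ended in C2. The second table gave 24.7% and 22.4% with N1, 56.8% and 56.2% with C1, and 57.4% and 54.4% with C2.

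The single forms did not rank alike. Grin1-201, without N1 and with C1 and C2, led in the first table at 40.55% and 45.04% of Grin1 TPM, but held 26.73% and 26.98% in the second. There Grin1-205, without N1 or C1 and with C2 prime, led at 29.25% and 31.57%, against 20.63% and 22.39% in the first table. These 2 forms were the highest pair in both tables and share the absence of N1. The TPM of Grin1-201 in the first table, 83.96 and 85.53, lay above its own deposited credibility intervals of 55.1 to 80.29 and 52.86 to 80.21. The posterior mean shares of the same table put it at 33.39% and 36.34%.

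The forms with N1 were the least settled. Grin1-204, with N1, C1 and C2, held 4.93% and 0.79% in the first table and 15.46% and 14.25% in the second. Grin1-208, with N1, C1 and C2 prime, held 6.56% and 13.25%, and 3.44% and 3.3%. Grin1-203, with N1 and C2, held 8.04% and 2.76%, and 3.73% and 2.83%. Of the forms without N1, Grin1-202 held 3.66% and 6.66% in the first table and 6.59% and 5.5% in the second, and Grin1-206 held 7.43% and 2.04%, and 6.33% and 6.71%. Grin1-207, with N1 and C2 prime and no C1, was listed at 0 in both libraries and tables. The animals differed on these forms in the first table far more than in the second, so no difference between animals is read from them.

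**Figure D4:**
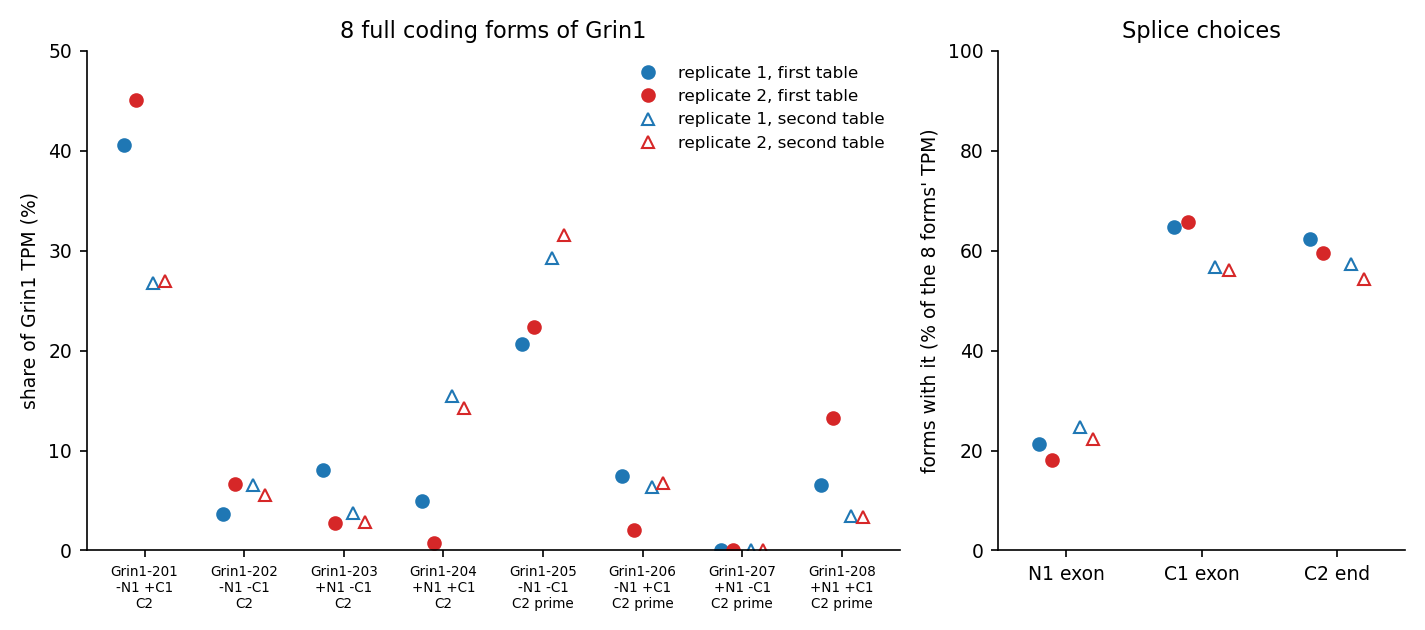
Left, share of Grin1 TPM held by each of the 8 full coding forms, labelled with the splice choices each carries. Right, share of those forms' TPM that carries the N1 exon, the C1 exon or the C2 end. Circles are the first table and triangles the second, coloured by replicate. In replicate 1 Grin1-201 moves from 40.55% in the first table to 26.73% in the second, and the C1 share from 64.8% to 56.8%.

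Grin3a had a splice difference of its own. Grin3a-202 carries 60 extra bases at the start of its last exon (chr4:49665566-49665625, minus strand, the insert shown above), which lengthen the intracellular tail. It held 32.14% and 18.47% of Grin3a TPM in the first table and 26.1% and 17% in the second. Grin3a-201, without the insert, held 50.96% and 67.88%, and 58.48% and 67.38%. Between these 2 forms the insert was carried by 38.7% in replicate 1 and 21.4% in replicate 2, and by 30.9% and 20.1% in the second table. It was the lower in replicate 2 by both programs, yet the credibility intervals of Grin3a-202, 3.01 to 6.06 TPM and 1.64 to 4.37 TPM, overlapped. Grin3a-203, a non-coding model of 3799 bases, held 15.52% and 12.86%, and 14.04% and 14.9% in the second table.

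The low GluN2 genes each had a pair of full coding forms. Grin2c-201 and Grin2c-202 share their coding sequence and differ at the 5′ end, and held 62.98% and 54.3%, and 37.02% and 45.7% of Grin2c TPM. The second table was close, with Grin2c-202 at 39.99% and 45.47%. Grin2d-201 held 70.87% and 66.67% of Grin2d TPM, and Grin2d-203 held 29.13% and 30.19%. By the second table Grin2d-201 held 67.32% and 55.74%, Grin2d-203 held 19.65% and 34.68%, and Grin2d-202, a partial model, held 13.04% and 9.58% after 0% and 3.14% in the first. For Grin3b, Grin3b-201 took every count.

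Some members share their place with other genes, and whether the counting used strand is not given in the sources used here. Gm45441, annotated antisense to the 3′ end of Grin2d over 3367 bases, was at 6.25 and 6.92 TPM, above Grin2d itself. Kdelr1 overlaps Grin2d on the opposite strand over 5607 bases, at 33.55 and 36.72 TPM. Tmem259 overlaps Grin3b on the opposite strand over 2243 bases, at 54.40 and 54.15 TPM, while Grin3b had 7 and 4 counts. Grin1os, antisense to Grin1 over 7706 bases, had 0 and 1 counts. If strand was not used, reads from exon bases that such genes share, as Grin2d and Gm45441 may, cannot be told apart. The overlaps given are of whole gene spans, and shared exon bases were not measured.

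The libraries were compared as 1 against 1, as log2 of replicate 2 over replicate 1 on TPM + 0.5. That scale understates changes of low genes. In bulk tissue, fewer cells of a type and less RNA per cell cannot be told apart. Of the 6 members that averaged 10 expected counts or more, 0 were over 25% apart (the higher value over the lower, 0.32 on the log2 scale), where 14.3% of 18136 such genes were. Among 711 genes with a mean between 100 and 250 TPM, the range that holds Grin1, Grin2a and Grin2b, 1.55% were over 25% apart. The median size of the log2 difference in that range was 0.054, beside 0.12 for Grin1, 0.07 for Grin2a and 0.05 for Grin2b.

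Grin1, Grin2a and Grin2b were lower in replicate 2, with log2 differences of -0.12, -0.07 and -0.05, and Grin2c, Grin2d and Grin3a were higher, at 0.04, 0.05 and 0.06. Being lower in 3 of 6 compares with 57.8% of all genes tested. On counts scaled by TMM, edgeR's trimmed mean of M values, 3 of 6 were again lower, where 50% of all genes were. The TMM differences were -0.08 for Grin1 (95% counting interval -0.11 to -0.05), -0.08 for Grin2a (-0.10 to -0.05) and -0.10 for Grin2b (-0.12 to -0.08). Grin3a was at 0.11 (0.02 to 0.20), and the intervals of Grin2c (-0.01 to 0.19) and Grin2d (-0.13 to 0.22) included 0.

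Scaled to the spike-in total, 6 of 6 members were higher in replicate 2, but only 20% of all genes tested were then lower. The median of all genes shifted by 0.155. Relative to that shift Grin1 (0.07), Grin2a (0.08) and Grin2b (0.05) were below it and Grin3a (0.27), Grin2c (0.25) and Grin2d (0.20) above it. In the second table Grin2a and Grin2b were at 0.01 each and Grin2d at -0.02, so their signs turned. The signs of Grin1, Grin2c and Grin3a were the same in both tables.

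**Figure D5:**
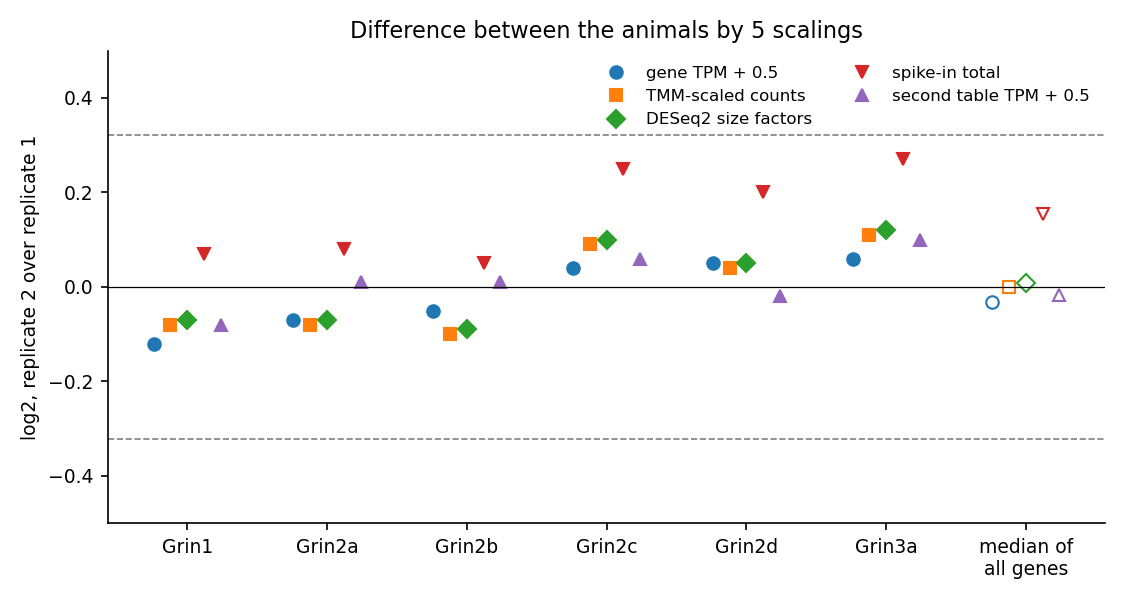
Log2 of replicate 2 over replicate 1 for the 6 members tested, by 5 scalings, with the median of all genes as open symbols on the right. Dashed lines mark 25%. No member reaches them, and with the spike-in total all points move up with the median, to 0.155.

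Markers of some other cell types moved between the libraries. The 6 mature oligodendrocyte markers, led by Mbp, summed to 867.2 and 1160 TPM. Of them 5 of 6 were over 25% higher in replicate 2, where 979 of all 18136 genes tested were. The 5 choroid plexus markers summed to 22 and 198.9 TPM, led by Ttr at 19.47 and 191.94 TPM. The 6 astrocyte markers, led by Slc1a2, summed to 1590 and 1440 TPM, with 0 of 6 over 25% apart. The part of these cells in the differences of the family was not tested. The 6 glutamatergic markers, led by Camk2a, were detected in both libraries and summed to 3104 and 2968 TPM, and the 6 GABAergic markers, led by Sst, to 474.5 and 478.7 TPM. Beside the level of Grin2c, cerebellar granule neuron markers were at or near 0: 1 of 5 was detected, Cbln1 at 4.16 and 6.21 TPM, while Gabra6 had 1 and 1 counts and Barhl1 had 0 and 0.

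Genes that make, carry or break down the co-agonist or its precursors had medians of 13.1 and 13.6 TPM. Of them 12 of 15 were detected, where 26.5% of all annotated genes and 14587 of the 18136 genes tested were. Psat1, a serine synthesis enzyme, was the highest at 52.12 and 48.11 TPM, and Phgdh, of the same pathway, was at 24.10 and 23.82 TPM. Srr, serine racemase, which makes D-serine, was at 44.48 and 43.71 TPM, and Slc1a4, a neutral amino acid transporter, at 17.37 and 17.17 TPM. Dao, which degrades D-serine, had 1 and 0 counts. Of the 13 with enough counts, Shmt1, a glycine and serine exchanging enzyme, was the 1 member over 25% apart, beside the 14.3% of all genes, at 0.41 and 0.82 TPM on 21 and 34 counts.

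The membrane scaffold list had medians of 78.1 and 73.7 TPM. It was detected in full, 18 of 18, where 26.5% of all annotated genes and 14587 of the 18136 genes tested were. Dlg4, the PSD-95 scaffold, was at 423.32 and 406.86 TPM, Shank1 at 283.29 and 249.60 TPM, Dlgap1 at 204.20 and 193.40 TPM, and Dlgap3 at 184.54 and 173.01 TPM. In replicate 2, 16 of 18 were lower by TPM and 15 of 18 on TMM-scaled counts, where 57.8% and 50% of all genes were. By the second table's TPM 14 of 18 were lower and by the spike-in total 2 of 18, where 54.1% and 20% of all genes were. Their median log2 difference was -0.082, beside -0.031 over all genes tested. Actn2, an actinin that links GluN1 and GluN2B to actin, was the 1 of 18 over 25% apart, beside 14.3% of all genes, at 6.13 and 4.33 TPM.

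Kinases, phosphatases and calcium signalling genes had the highest median level of the pathway lists, at 117 and 113 TPM. Of these genes 24 of 24 were detected, where 26.5% of all annotated genes and 14587 of the 18136 genes tested were. Camk2a, the kinase subunit that docks on GluN2B, was at 1263.91 and 1147.36 TPM. Calm2 and Calm3, which encode calmodulin, were at 1048.44 and 1069.82, and 849.02 and 838.48 TPM. Of the 24, 2 were over 25% apart, no larger a share than the 14.3% of all genes. Rasgrf2, a calcium-dependent Ras activator, was at 109.64 and 84.05 TPM, and Nos1, neuronal nitric oxide synthase, at 12.03 and 15.49 TPM.

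All 10 traffic genes were detected, where 26.5% of all annotated genes and 14587 of the 18136 genes tested were. Of the 10, 0 were over 25% apart, where 14.3% of all genes were. The highest were Nsf at 412.45 and 418.39 TPM, Ap2m1, an endocytic adaptor, at 395.01 and 393.08 TPM, Grina at 216.04 and 224.35 TPM, and Nedd4, a ubiquitin ligase, at 122.41 and 120.30 TPM. Ephb2, a receptor that clusters NMDA receptors, was the lowest at 8.63 and 9.37 TPM.

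Regulators linked to the switch had medians of 13.9 and 15.4 TPM. Detected were 19 of 19, beside 26.5% of all annotated genes and 14587 of the 18136 genes tested. Grm5, the metabotropic receptor required for the activity-driven switch, was at 87.95 and 87.01 TPM, Crtc1 at 57.87 and 52.28 TPM, Tbr1 at 51.96 and 51.84 TPM, and Hdac2 at 39.43 and 39.65 TPM. Rest, a repressor known to silence Grin2b during the switch, was the lowest of the list at 1.62 and 1.71 TPM. Wnt5a was the 1 of 19 over 25% apart, beside 14.3% of all genes, at 4.66 and 3.38 TPM.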

How the data were processed

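Total RNA-seq of 2 libraries of 1 group was used. Per the file headers, the authors deposited a gene table and a first transcript table with expected counts and TPM (the first under column names that RSEM writes), and a second transcript table with estimated counts and TPM under names that kallisto writes. The deposited file lists give mm10 and GENCODE M21. The aligner, program versions and strand setting: not given in the sources used here. Total expected counts were 30503944 and 33263801, and members took 0.299% and 0.283% of those on genes. Depth limits Grin3b most.

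Differences are log2 of TPM + 0.5 for genes averaging 10 expected counts or more. Counting intervals are exact binomial at 95% and cover counting error only. Expected counts were rounded for edgeR 4.0.16 (TMM) and DESeq2 1.42.0 (size factors) in R 4.3.3. The rest used scipy 1.17.1, pandas 2.3.3, numpy 2.4.6 and matplotlib 3.10.9 under Python 3.11.15. The steps were tested on simulated data.

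The members and lists were chosen with earlier results of these data known. Named were all members, each transcript that reached 5% of its gene in either library and table, and of each list the 4 highest genes, the lowest and any over 25% apart. Of the genes that this rule or the list of pairs gives, 2 are not reported here. No gene was named for a like pattern, since 1 group gives none. Spike-in rows and rows that name no gene were left out of levels.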

Additional observations from a re-analysis of the deposited data

How the results depend on the processing

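Of 26 alternatives to the counts and values that answer the comparisons, 20 left a value within 1 SD of the replicates or a count of genes within 1.5 times, among them each one for the count of 6 detected genes and of 0 genes over 25% apart. With 2 replicates, a value without 1 of them always lies within 1 SD of the mean. Ratios and shares without 1 replicate were therefore bound to be counted among the 20, and show nothing about stability. The mean log2 ratio of Grin2a over Grin2b, -0.43, was -0.13 in the second table, -0.41 by posterior mean TPM, and -0.18 and -0.14 over full coding transcripts of the first and second table, which were chosen after seeing the data. Without 1 replicate it ran from -0.44 to -0.42. The mean share of Grin1-201 in Grin1, 42.8%, was 26.9% in the second table, 34.9% by posterior mean TPM, and from 40.6% to 45.0% without 1 replicate. Counts not divided by length turned the log2 ratio of Grin2a over Grin1 from -0.82 to 0.60 and of Grin2b over Grin1 from -0.39 to 1.53, because the Grin2a and Grin2b transcripts are longer. Over all values and alternatives 58 stayed, 29 moved further and these 2 ratios were counted as changing direction. The 58 again include the ratios and shares without 1 replicate, which could not have moved. Differences between the animals were sorted only as stayed or moved, so changes of their sign are not in that count. With the spike-in total Grin1, Grin2a and Grin2b changed sign, and in the second table Grin2a, Grin2b and Grin2d did. The cause of the other shifts was not tested. The share of all genes over 25% apart ran from 9.8% with a pseudocount of 1 to 22.7% with the spike-in total. No paired analysis was possible because there is 1 group. Reads from the CAST/EiJ alleles were counted against mm10, and the effect of this on the members was not tested.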

Other observations

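RefSeq promoter sequences (GRCm38.p6, 250 bases before to 50 after the start) were matched for 4 of the 7 genes, Grin1, Grin2c, Grin2d and Grin3b; Grin2a, Grin2b and Grin3a had no entry. The Grin1 promoter held 33 CpG sites, more than 91.4% of 32851 promoters, whose median was 7. Grin2c held 22, Grin2d 12 and Grin3b 3. The Grin2d window, chr7:45866632-45866931, lay inside the annotated gene, which starts at 45878378 on the minus strand. The other windows covered the annotated gene start. The Sp1 motif GGGCGG, searched on both strands, was found 1 time in Grin1, 3 times in Grin2c and 0 times in Grin2d and Grin3b, where 35.7% of all promoters held it. The cAMP response element TGACGTCA, which 1.79% of promoters held, was in 0 of the 4. These matches describe the letters in those windows only.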
